A study of Mus musculus with 15 samples.

Results

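Nuclear receptors are transcription factors that are switched by small molecules, and the 10 described here sense drugs, bile acids, hormones, vitamin D and fatty acids: Esr1, Nr1i2, Nr1i3, Nr1h4, Nr0b2, Nr5a2, Nr3c1, Vdr, Ppara and Pparg. They were picked by symbol from the 45905 genes of 2 deposited tables of reads per gene, 1 for organoids and 1 for gut, and each symbol was found once in both tables, as a protein-coding gene. The RNA came from mouse gut or from organoids grown out of it, in a study of plakoglobin (gene Jup), an adhesion protein, and its removal from the intestinal epithelium. The 5 groups of 3 libraries are named by their descriptions. Tamoxifen organoids carry the code T41 and, per their titles, floxed Jup alleles (JUPfl/fl) with iVilCre ERT2, a Cre recombinase under the villin promoter that tamoxifen activates in intestinal epithelium. DMSO organoids carry the code T75 and the floxed alleles with no Cre named, and DMSO is a common solvent for drugs. The nativ organoids share the code T75 and the floxed alleles, with no agent named. The gut libraries are described as PG_KO and ctr, and each library has a code of its own. Their titles go the other way, since those of the PG_KO libraries name DSS colitis in JUPfl/fl mice and those of the ctr libraries name iVilCre ERT2JUPfl/fl, so the groups are called here by their descriptions alone. All groups thus carry floxed Jup as far as the titles tell. The labels give no age, sex, dose or time, and do not say which stretch of gut was taken.

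In organoids the code, the Cre transgene and the treatment change together between Tamoxifen and the other groups, so they cannot be told apart. In gut the titles name DSS colitis for the PG_KO libraries alone and the Cre transgene for the ctr libraries alone. As far as these titles hold, colitis, the transgene and the knockout label change together between PG_KO and ctr. A gut difference thus cannot be assigned to any of them. Each organoid group has 1 code, and nothing says that its 3 libraries were separate cultures, so p-values measure only the spread between these libraries. Cre ERT2 holds a ligand-binding domain of the human estrogen receptor, the protein that Esr1 encodes in mouse, and whether any of its reads were counted under Esr1 was not tested.

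A nuclear receptor has a DNA-binding domain that reads short hexamers, often 2 of them in pairs, and a pocket that takes a ligand. Several work as pairs with RXR, among them PXR (Nr1i2), CAR (Nr1i3), FXR (Nr1h4), VDR and the PPARs. In the gut they couple what is in the lumen and blood to genes of detoxification, bile acid return, calcium uptake and fat handling. PXR and CAR answer to foreign compounds, and FXR to bile acids. SHP (Nr0b2) has no DNA-binding domain and dampens other receptors, LRH-1 (Nr5a2) acts in crypts and in local glucocorticoid synthesis, and ERα (Esr1) and the glucocorticoid receptor (Nr3c1) are the classic steroid receptors. Tamoxifen is a ligand of ERα.

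Promoter windows are shown first, and whether their letters bear on the RNA levels was not tested. The windows hold 250 bases before and 50 after a RefSeq start site in GRCm38.p6, the build of the deposited tables, and are printed 5′ to 3′ on the strand of the gene. RefSeq gave a window for 9 of the 10 genes, 13 windows in all. The letters searched on both strands were AGGTCA, the hexamer of many nuclear receptors, AAAGTCC, the core of HNF4 sites, TTTATG, letters read by CDX factors, and GTTAAT, a piece of HNF1 sites. Capitals mark every match, as read on the printed strand, and no 2 matches overlap. The window of Nr1h4 is shown because all 4 searches matched in it, Nr5a2 and Pparg for a match of AGGTCA, and Nr1i2 because it had the smallest p of the receptors tested and its window held no match.
Nr1h4, chr10:89506609-89506908, minus strand: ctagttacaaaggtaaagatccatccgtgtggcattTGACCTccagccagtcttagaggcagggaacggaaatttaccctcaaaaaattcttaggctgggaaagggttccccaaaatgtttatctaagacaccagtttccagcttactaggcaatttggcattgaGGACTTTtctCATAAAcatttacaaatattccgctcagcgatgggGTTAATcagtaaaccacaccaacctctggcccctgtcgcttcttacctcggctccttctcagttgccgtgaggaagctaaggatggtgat
Nr5a2, chr1:136960399-136960698, minus strand: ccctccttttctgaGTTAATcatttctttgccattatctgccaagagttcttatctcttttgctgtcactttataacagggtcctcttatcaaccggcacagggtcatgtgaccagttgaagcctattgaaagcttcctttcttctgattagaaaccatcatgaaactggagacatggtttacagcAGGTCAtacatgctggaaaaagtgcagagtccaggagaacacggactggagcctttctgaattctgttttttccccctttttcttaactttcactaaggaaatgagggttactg
Pparg, chr6:115362099-115362398, plus strand: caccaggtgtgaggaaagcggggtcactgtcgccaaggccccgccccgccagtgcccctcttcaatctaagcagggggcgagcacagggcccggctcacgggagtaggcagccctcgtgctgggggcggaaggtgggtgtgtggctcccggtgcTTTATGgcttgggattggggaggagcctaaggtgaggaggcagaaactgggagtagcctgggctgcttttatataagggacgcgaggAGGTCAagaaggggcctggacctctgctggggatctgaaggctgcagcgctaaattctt
Nr1i2, chr16:38294775-38295074, minus strand: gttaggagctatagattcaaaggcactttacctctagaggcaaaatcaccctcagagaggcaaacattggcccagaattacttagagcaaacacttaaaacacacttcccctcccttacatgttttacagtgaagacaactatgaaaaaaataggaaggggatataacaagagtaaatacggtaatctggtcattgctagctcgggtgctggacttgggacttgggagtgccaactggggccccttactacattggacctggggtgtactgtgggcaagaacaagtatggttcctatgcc
In Nr1h4 the matches begin 214 (AGGTCA, reverse strand), 85 (AAAGTCC, reverse), 75 (TTTATG, reverse) and 40 bases (GTTAAT, forward) before the start site, which lies 26987 bases inside the gene as the tables bound it. In Nr5a2 GTTAAT begins 236 and AGGTCA 64 bases before the start site, both forward. In Pparg TTTATG begins 96 and AGGTCA 9 bases before the start site shown, and another Pparg window, chr6:115360894-115361193, had AGGTCA 28 bases before its own. AGGTCA was thus found in 4 of the 13 windows, of 3 genes, against 16.3% of all 32851 promoter windows of the same length. AAAGTCC was found in 1 of the 13 windows, TTTATG in 3 and GTTAAT in 2, against 4.21%, 11.9% and 7.10% of all windows. A match is only a run of letters, and in the windows of Esr1, Nr1i2, Nr1i3, Nr0b2, Vdr and Ppara these letters did not occur.

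Organoid libraries held 25184868 to 30744342 reads each, gut libraries 23194154 to 29257456, and 3 reads in a library correspond to 0.0976 to 0.129 CPM, counts scaled to a common library total. Jup averaged 70.3 ± 1.20 CPM in Tamoxifen, 384 ± 27.8 CPM in DMSO and 352 ± 67.2 CPM in nativ organoids, and 79.4 ± 3.89 CPM in PG_KO and 390 ± 97.4 CPM in ctr gut (SD, n = 3 each), so it was low in the libraries described as Tamoxifen and PG_KO. All groups had the 10 epithelial markers, but Cdx1 was under 1 CPM in every DMSO and nativ library. The 10 markers of small intestinal enterocytes summed to 7453 to 8251 CPM in Tamoxifen, against 11.8 to 19.3 CPM in DMSO and 14.4 to 17.8 CPM in nativ organoids. Lct, Apoa4 and Fabp2 were under 1 CPM in every DMSO and nativ library, and Treh had no read there. The 8 colonocyte markers summed to 109 to 113 CPM in Tamoxifen, against 1.15 to 2.03 CPM in DMSO and 1.25 to 2.02 CPM in nativ organoids. In gut they summed to 776 to 1426 CPM in PG_KO and 2543 to 6500 CPM in ctr, and enterocyte markers to 36.0 to 91.1 CPM in PG_KO and 84.5 to 152 CPM in ctr. In bulk RNA, fewer cells of a type and less RNA per cell cannot be told apart.

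In organoids 7 of the receptors were higher in Tamoxifen than in DMSO libraries: Nr1i2, Nr1i3, Nr1h4, Nr5a2, Esr1, Vdr and Ppara. Pparg was lower, Nr3c1 did not pass the test, and Nr0b2 had too few reads to pass the low-count filter. The same 7 genes were higher and the same 1 lower in Tamoxifen against nativ libraries, a comparison that shares the Tamoxifen libraries with the first. The call is an adjusted p under 0.05 from edgeR's quasi-likelihood test with Benjamini-Hochberg adjustment over 16449 genes. The background of such calls is large: 66.3% of all tested genes were called against DMSO, 33.9% higher and 32.4% lower, and 66.9% against nativ, 33.5% higher and 33.5% lower. The median log2 change of the 9 tested receptors was 4.09 against DMSO and 3.91 against nativ, beside medians of 0.02 and 0.01 over all genes. Nr1i2 and Nr1i3 reached the low-count filter through the Tamoxifen libraries alone, so they had to differ, and among the other 7 tested receptors 5 were higher and 1 lower. The enterocyte and colonocyte markers above moved with these receptors, all 10 and 7 of 7 tested called higher against DMSO. Of these markers Lct, Treh, Car1, Car4, Ms4a12 and Slc26a3 reached the filter through Tamoxifen alone, and the other 8 and 3 were called higher. Whether each of those 8 and 3 would pass the filter without the Tamoxifen libraries was not examined. Their part in the receptors' changes was not tested.

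**Figure D1:**
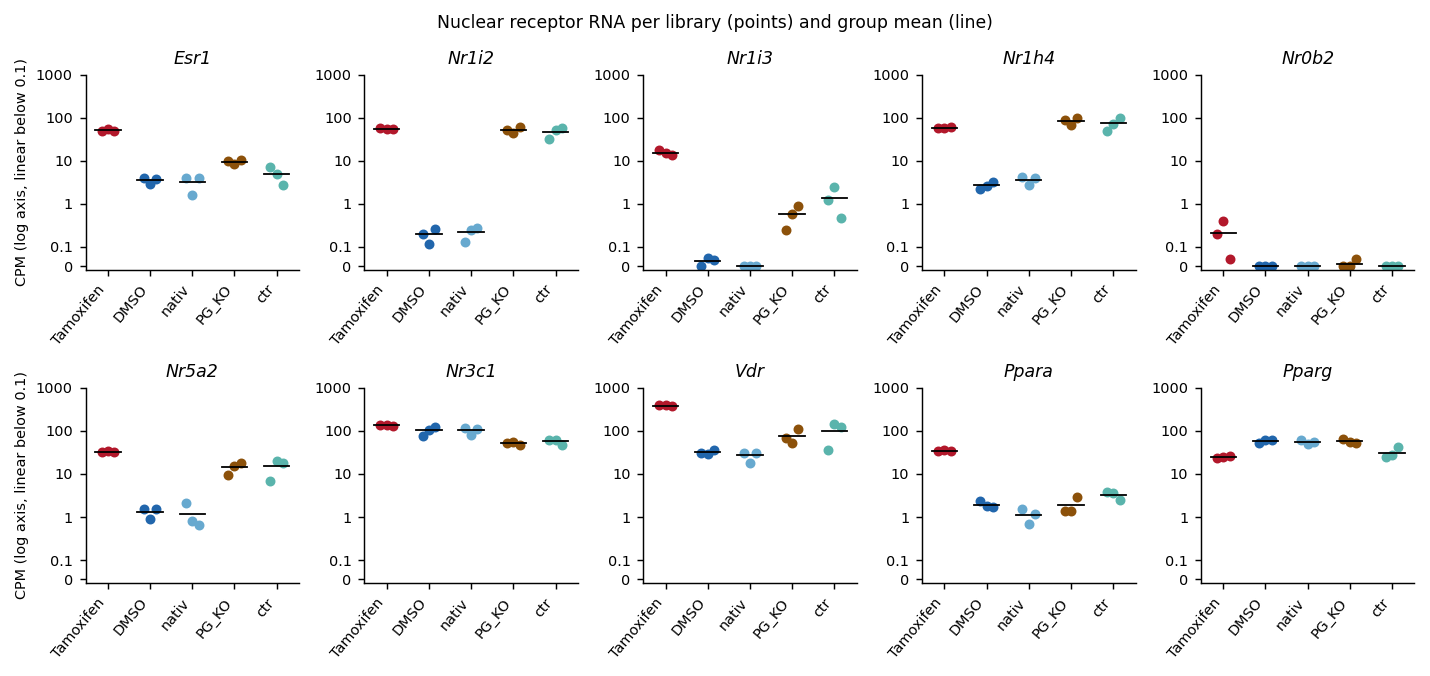
Level of each receptor in every library (points; horizontal line, mean of 3) in CPM, on an axis that is logarithmic above 0.1 CPM and linear below it. Nr1i2 lies near 55 CPM in Tamoxifen and near 0.2 CPM in DMSO and nativ libraries, Pparg is the receptor that is lower in Tamoxifen, and Nr3c1 changes least.

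Nr1i2 (chr16:38248349-38294849, minus strand) encodes PXR, the broad sensor of drugs in gut and liver, whose promoter window is the last of those printed. It stood at 56.1, 55.2 and 55.3 CPM in Tamoxifen, at 0.203, 0.119 and 0.262 CPM in DMSO and at 0.131, 0.243 and 0.278 CPM in nativ libraries. The DMSO values rest on 3 to 8 reads a library and the nativ values on 4 to 8, so the gene was near the floor of detection in both. The log2 change was 8.03 against DMSO (SE 0.20, edgeR adjusted p = 2.70e-10) and 7.86 against nativ (SE 0.20, edgeR adjusted p = 2.97e-10). Nr1i3 (chr1:171213934-171218845, plus strand) encodes CAR, which shares many targets with PXR and is best known from liver. Its reads in the Tamoxifen libraries numbered 519, 462 and 385, or 15.4 ± 1.81 CPM, against 0, 1 and 1 in DMSO and none in nativ libraries. The ratio of reads per total was 657 against DMSO (95% counting interval 182 to 5432, counting error only), and CAR was at least 453-fold higher than in nativ, taking 3 reads over that group as the floor. It passed the test in both comparisons (edgeR adjusted p = 4.97e-08 and 4.50e-08).

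Genes that PXR and CAR are known to control were mostly higher too. Of 16 listed, 15 were tested against DMSO, of which 12 were higher, 1 lower and 2 not called, with a median log2 change of 4.56. Beside this list and those below, 33.9% of all genes were higher and 32.4% lower against DMSO. Of the PXR and CAR targets, Cyp2c55, Cyp2c65, Cyp3a11 and Cyp3a25 reached the low-count filter through Tamoxifen alone. Of the other 11 tested 8 were higher, among them Ces2a, which also passed the filter only with the Tamoxifen libraries. Abcb1a, which encodes the drug pump P-glycoprotein, averaged 593 ± 15.03 CPM in Tamoxifen, 1.40 ± 0.230 CPM in DMSO and 1.32 ± 0.182 CPM in nativ libraries (log2 change against DMSO 8.66, SE 0.17, edgeR adjusted p = 1.10e-10). Cyp3a11, a main drug-oxidising enzyme, averaged 105 ± 10.3 CPM in Tamoxifen, 0.0109 CPM in DMSO and 0.0578 CPM in nativ libraries. Cyp2c65, another cytochrome P450, stood at 242 ± 16.6 CPM in Tamoxifen, against 0.0132 CPM in DMSO and 0.127 CPM in nativ. Ces2a, a carboxylesterase, averaged 565 ± 24.6 CPM in Tamoxifen, against 0.104 ± 0.0284 CPM in DMSO and 0.379 ± 0.337 CPM in nativ.

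Nr1h4 (chr10:89454234-89533645, minus strand) encodes FXR, the bile acid receptor, and its printed window holds all 4 searched letter runs. It stood at 58.5, 55.9 and 60.4 CPM in Tamoxifen, at 2.199, 2.54 and 3.28 CPM in DMSO and at 4.26, 2.77 and 3.90 CPM in nativ libraries. The groups did not overlap between Tamoxifen and the rest, and the log2 change was 4.38 against DMSO (SE 0.16, edgeR adjusted p = 2.65e-09) and 3.89 against nativ (SE 0.15, edgeR adjusted p = 4.98e-09). Nr0b2 (chr4:133553376-133556686, plus strand), which encodes SHP and is itself a known FXR target, had 6, 12 and 1 reads in the Tamoxifen libraries, and none in any DMSO or nativ library. Taking 3 reads over the group as the floor, it was at least 6.09-fold higher than in DMSO and at least 6.30-fold higher than in nativ. It lay below the low-count filter and passed edgeR's test only in fits without that filter. At its highest, 0.390 CPM in a Tamoxifen library, SHP stayed low in these organoids. Nr5a2 (chr1:136842562-136960448, minus strand), which encodes LRH-1, stood at 33.0, 33.3 and 31.7 CPM in Tamoxifen, at 1.52, 0.913 and 1.51 CPM in DMSO and at 2.10, 0.797 and 0.661 CPM in nativ libraries. Its log2 change was 4.55 against DMSO (SE 0.31, edgeR adjusted p = 3.06e-07) and 4.66 against nativ (SE 0.31, edgeR adjusted p = 2.75e-07).

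Of 10 listed FXR and SHP targets, 6 were tested and all 6 were called higher against DMSO, at a median log2 change of 9.54. Fabp6, Slc51a and Slc51b reached the filter level in no DMSO or nativ library, so they had to be higher. Fgf15 and Abcb4 reached it in some of those libraries, but in fewer than 3, so they too passed only with Tamoxifen. Slc10a2 alone passed without the Tamoxifen libraries, at a log2 change of 3.11. That is also the median of Fgf15, Slc10a2 and Abcb4, and Abcb4 (log2 change 1.73) reached at most 0.976 CPM in a Tamoxifen library. Fgf15, the ileal hormone that FXR induces and that restrains bile acid synthesis in liver, averaged 104 ± 2.58 CPM in Tamoxifen, 0.307 ± 0.0628 CPM in DMSO and 0.250 ± 0.105 CPM in nativ libraries (log2 change against DMSO 8.32, SE 0.17, edgeR adjusted p = 1.16e-10). Fabp6, the ileal bile acid binding protein, stood at 108 ± 8.30 CPM in Tamoxifen, against 0.0132 CPM in DMSO and 0.0579 CPM in nativ. Slc51a, a subunit of the basal bile acid exporter, stood at 50.007 ± 1.15 CPM in Tamoxifen, against 0.0219 CPM in DMSO and 0.0231 CPM in nativ. Slc10a2, the apical bile acid importer, which FXR is known to restrain, averaged 136 ± 2.01 CPM in Tamoxifen, 14.99 ± 0.858 CPM in DMSO and 13.9 ± 3.95 CPM in nativ libraries. In the list for LRH-1 and gut steroid synthesis 3 of 6 tested genes were higher and 2 lower, with a median of 0.69. Cyp11a1, the first enzyme of steroid synthesis, averaged 3.93 ± 0.359 CPM in Tamoxifen, 0.148 ± 0.123 CPM in DMSO and 0.135 ± 0.0637 CPM in nativ. Tnfaip3, a brake on NF-κB signalling, fell to 21.2 ± 0.626 CPM in Tamoxifen, against 48.0 ± 7.20 CPM in DMSO and 51.7 ± 9.28 CPM in nativ. Ccnd1, encoding cyclin D1, fell to 314 ± 9.21 CPM in Tamoxifen, against 1060 ± 208 CPM in DMSO and 850 ± 255 CPM in nativ.

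Esr1 (chr10:4611989-5005633, plus strand) encodes ERα, which tamoxifen binds. It stood at 49.5, 53.1 and 50.1 CPM in Tamoxifen, at 3.89, 2.86 and 3.70 CPM in DMSO and at 3.90, 1.56 and 4.002 CPM in nativ libraries. Every Tamoxifen library lay above every other organoid library, with a log2 change of 3.80 against DMSO (SE 0.23, edgeR adjusted p = 1.40e-07) and 3.91 against nativ (SE 0.23, edgeR adjusted p = 1.20e-07). Of 10 listed estrogen receptor targets, 7 were tested against DMSO, 3 higher, 3 lower and 1 not called, with a median of 0.02, that of all genes. Greb1, a cofactor of ERα that estrogen induces in breast cells, averaged 31.6 ± 1.96 CPM in Tamoxifen and 0.0457 ± 0.0207 CPM in nativ libraries, and had no read in DMSO libraries. Myb, a factor of proliferating cells, averaged 30.3 ± 1.07 CPM in Tamoxifen, 0.0845 ± 0.0456 CPM in DMSO and 0.479 ± 0.216 CPM in nativ. Areg, the growth factor amphiregulin, was higher as well, at 235 ± 2.75 CPM in Tamoxifen, 57.9 ± 10.5 CPM in DMSO and 50.8 ± 1.63 CPM in nativ. Xbp1, a factor of the secretory pathway, fell to 148 ± 2.08 CPM in Tamoxifen, against 780 ± 75.2 CPM in DMSO and 758 ± 61.4 CPM in nativ. Pgr, the progesterone receptor and a classic ERα target, averaged 0.0108 CPM in Tamoxifen and 0.0328 CPM in DMSO libraries, with no read in nativ, and was not tested.

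Nr3c1, on chromosome 18, encodes the glucocorticoid receptor, which most cell types carry. It stood at 135, 136 and 132 CPM in Tamoxifen, at 77.6, 106 and 126 CPM in DMSO and at 118, 79.5 and 110 CPM in nativ libraries. All Tamoxifen values lay above all others, a separation that 76.1% of tested genes showed against DMSO and 74.6% against nativ. The log2 change of 0.32 against DMSO (SE 0.16, 95% interval 0.00 to 0.63, edgeR adjusted p = 0.106) and of 0.28 against nativ (SE 0.16, 95% interval -0.03 to 0.60, edgeR adjusted p = 0.141) did not pass. Without DMSO replicate 1 the change against nativ passed (0.28, edgeR adjusted p = 0.0327), as it did in a fit of the 6 compared libraries alone (0.27, edgeR adjusted p = 0.0428), and without DMSO replicate 3 the change against DMSO passed (0.46, edgeR adjusted p = 0.0322). Of 13 glucocorticoid targets, all tested against DMSO, 4 were higher, 8 lower and 1 not called, with a median of -0.52. Fkbp5, a chaperone partner of steroid receptors and a sensitive glucocorticoid target, averaged 110 ± 2.57 CPM in Tamoxifen, 16.0 ± 2.12 CPM in DMSO and 10.9 ± 1.31 CPM in nativ libraries (log2 change against DMSO 2.72, SE 0.11, edgeR adjusted p = 7.21e-09). Dusp1, a phosphatase that shuts off MAP kinases, fell to 10.8 ± 0.829 CPM in Tamoxifen, against 127 ± 15.5 CPM in DMSO and 116 ± 18.7 CPM in nativ. Errfi1, an inhibitor of the EGF receptor, fell to 102 ± 3.95 CPM in Tamoxifen, against 423 ± 91.9 CPM in DMSO and 384 ± 93.6 CPM in nativ.

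Vdr (chr15:97854427-97908296, minus strand) encodes the receptor of calcitriol, the active form of vitamin D, and per length it was the most abundant of the 10 in Tamoxifen organoids. It stood at 393, 390 and 375 CPM in Tamoxifen, at 31.4, 29.6 and 35.5 CPM in DMSO and at 31.5, 18.3 and 31.2 CPM in nativ libraries. The log2 change was 3.52 against DMSO (SE 0.15, edgeR adjusted p = 8.92e-09) and 3.73 against nativ (SE 0.15, edgeR adjusted p = 6.42e-09). Of 8 listed targets 7 were tested against DMSO, with 4 higher, 1 lower and 2 not called and a median of 1.85. Both Cyp24a1 and Slc30a10 reached the low-count filter through Tamoxifen alone, and of the other 5 tested 2 were higher and 1 lower, with a median of 0.07. That is near the share over all genes, 33.9% higher and 32.4% lower. S100g, the calcium carrier calbindin-D9k, averaged 381 ± 10.2 CPM in Tamoxifen, 13.2 ± 3.86 CPM in DMSO and 20.5 ± 6.92 CPM in nativ libraries (log2 change against DMSO 4.79, SE 0.30, edgeR adjusted p = 1.59e-07). Cyp24a1, which breaks down calcitriol and is the most used readout of VDR, averaged 5.64 ± 0.504 CPM in Tamoxifen, 0.0788 ± 0.104 CPM in DMSO and 0.125 ± 0.0235 CPM in nativ. Slc30a10, a manganese exporter, averaged 323 ± 25.8 CPM in Tamoxifen and 0.170 ± 0.139 CPM in nativ, with no read in DMSO.

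The PPARs among the receptors described here, Ppara and Pparg, went opposite ways. Ppara (chr15:85734910-85806851, plus strand) encodes PPARα, which drives fatty acid oxidation. It stood at 34.3, 36.3 and 33.6 CPM in Tamoxifen, at 2.37, 1.79 and 1.67 CPM in DMSO and at 1.51, 0.693 and 1.15 CPM in nativ libraries. The log2 change was 4.09 against DMSO (SE 0.19, edgeR adjusted p = 1.43e-08) and 4.84 against nativ (SE 0.20, edgeR adjusted p = 6.56e-09). Pparg (chr6:115360879-115490404, plus strand) encodes PPARγ, the master regulator of fat cells, which colon epithelium also makes. It stood at 23.1, 25.3 and 26.0 CPM in Tamoxifen, at 51.5, 62.8 and 62.1 CPM in DMSO and at 61.6, 49.5 and 55.8 CPM in nativ libraries. Every Tamoxifen library lay below every other organoid library, with a log2 change of -1.32 against DMSO (SE 0.11, edgeR adjusted p = 1.98e-06) and -1.28 against nativ (SE 0.11, edgeR adjusted p = 2.52e-06). The tables count whole genes, so the isoforms that start at the different Pparg promoters are summed.

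Of 16 PPARα targets 14 were tested against DMSO, 8 higher, 3 lower and 3 not called, with a median of 0.68. Fabp1, a fatty acid carrier, averaged 303 ± 30.96 CPM in Tamoxifen, 0.0109 CPM in DMSO and 0.0925 CPM in nativ libraries. Creb3l3, a factor of fasting metabolism, averaged 87.1 ± 3.88 CPM in Tamoxifen, 0.103 ± 0.0840 CPM in DMSO and 0.183 ± 0.172 CPM in nativ. Vnn1, a pantetheinase, fell to 13.6 ± 0.263 CPM in Tamoxifen, against 147 ± 19.6 CPM in DMSO and 136 ± 25.3 CPM in nativ. Of 10 PPARγ targets 7 were tested, 4 higher, 2 lower and 1 not called, with a median of 2.30. Aqp7 and Cd36 reached the filter through Tamoxifen alone, and of the other 5 tested 2 were higher and 2 lower, with a median of 0.70. The higher ones included Cidec, a lipid droplet protein, at 12.4 ± 0.978 CPM in Tamoxifen, 0.417 ± 0.0861 CPM in DMSO and 0.328 ± 0.141 CPM in nativ, and Angptl4, an inhibitor of lipoprotein lipase that is on both PPAR lists, at 31.4 ± 1.77 CPM in Tamoxifen, 6.08 ± 2.00 CPM in DMSO and 7.90 ± 1.66 CPM in nativ. Pdk4, a brake on glucose oxidation, was lower, at 0.881 ± 0.0473 CPM in Tamoxifen, 4.73 ± 2.33 CPM in DMSO and 5.61 ± 0.539 CPM in nativ. Of 7 listed fat cell genes, Adipoq, Plin1, Lep, Cfd and Fabp4 had no read in any Tamoxifen or nativ library. In DMSO libraries Plin1, Lep and Cfd had none. The list, of which Cidec alone was tested, summed to 11.4 to 13.3 CPM in Tamoxifen, 0.397 to 0.852 CPM in DMSO and 0.418 to 0.658 CPM in nativ.

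**Figure D2:**
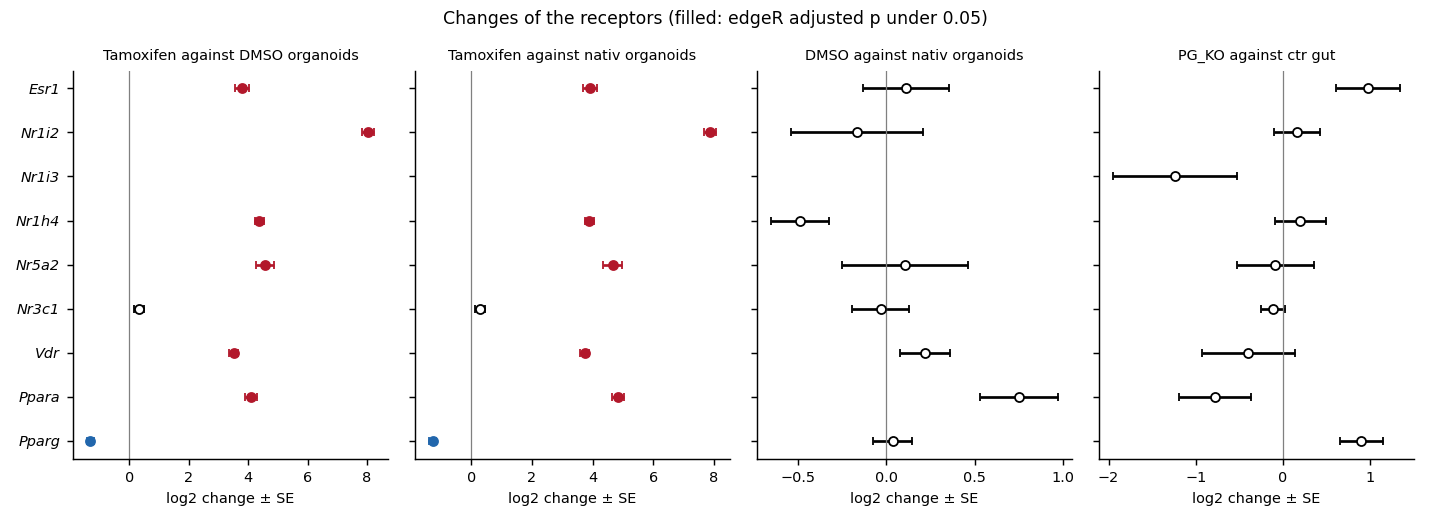
Log2 change of each receptor with its standard error in the 4 comparisons (edgeR; filled, adjusted p under 0.05; red higher, blue lower; each panel has its own axis). The Nr1i3 changes in organoids are not drawn because DMSO and nativ libraries had 2 and 0 reads. In Tamoxifen, 6 of the receptors drawn are called higher and Pparg lower, and no point is filled in the 2 other panels.

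Of 39 other nuclear receptors listed, 27 were tested against DMSO, 11 higher, 10 lower and 6 not called, with a median of -0.02, beside 33.9% higher and 32.4% lower over all genes. Hnf4g, a factor of differentiated enterocytes, averaged 173 ± 3.58 CPM in Tamoxifen, 0.240 ± 0.133 CPM in DMSO and 0.488 ± 0.173 CPM in nativ libraries. Lower in Tamoxifen were Rora, the retinoid-related orphan receptor, at 3.06 ± 0.125 CPM in Tamoxifen, 37.3 ± 6.15 CPM in DMSO and 36.7 ± 9.46 CPM in nativ, and Nr2f2 (COUP-TFII), at 7.27 ± 0.969 CPM in Tamoxifen, 34.9 ± 5.11 CPM in DMSO and 38.4 ± 4.16 CPM in nativ. Rarg, a retinoic acid receptor, fell to 28.2 ± 0.447 CPM in Tamoxifen, against 84.9 ± 0.323 CPM in DMSO and 77.3 ± 12.5 CPM in nativ. Among 15 coregulators and chaperones 4 were higher, 3 lower and 8 not called, with a median of 0.14. The higher ones included the PGC-1 coactivators Ppargc1a, at 40.8 ± 0.719 CPM in Tamoxifen, 17.2 ± 0.942 CPM in DMSO and 14.8 ± 2.43 CPM in nativ, and Ppargc1b, at 19.7 ± 0.453 CPM in Tamoxifen, 6.29 ± 1.16 CPM in DMSO and 7.22 ± 1.01 CPM in nativ.

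**Figure D3:**
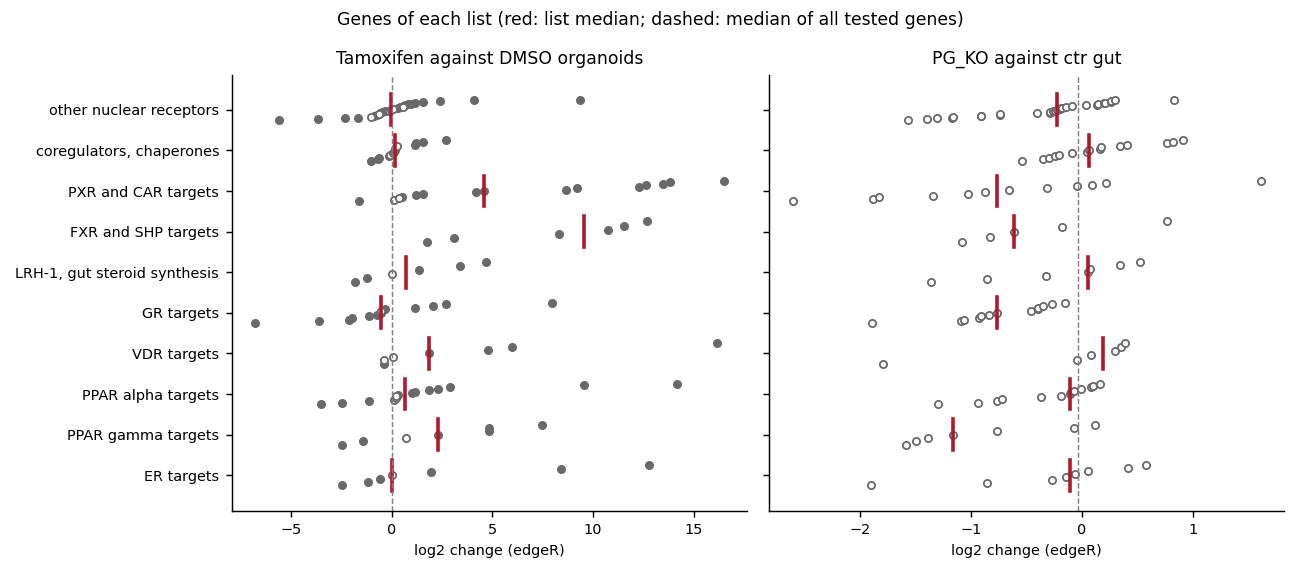
Log2 change of every tested gene of each list in Tamoxifen against DMSO organoids and in PG_KO against ctr gut (filled, edgeR adjusted p under 0.05; red bar, list median; dashed line, median of all tested genes; axes differ). FXR and SHP targets have a median of 9.54 in organoids, and no gene of any list is called in gut. Of these 6 targets Slc10a2 alone, at 3.11, passed the low-count filter without the Tamoxifen libraries.

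Against nativ organoids the lists gave near counts, beside 33.5% of all genes higher and 33.5% lower. PXR and CAR targets had 13 higher and 1 lower of 15, FXR and SHP targets 6 higher of 6, VDR targets 5 higher and 0 lower of 7, PPARα targets 8 higher and 3 lower of 14, PPARγ targets 5 higher and 2 lower of 7, and estrogen receptor targets 3 higher and 3 lower of 7. Glucocorticoid targets had 3 higher and 8 lower of 13, the other receptors 12 higher and 10 lower of 27, coregulators 6 higher and 4 lower of 15, and the list for LRH-1 and steroid synthesis 3 higher and 2 lower of 6. Both comparisons share the Tamoxifen libraries. Greb1, Cyp11a1, Fabp1 and Pck1 also reached the level of the low-count filter, 0.338 CPM, in no DMSO or nativ library. Without such genes the medians against DMSO were 1.57 for PXR and CAR targets, -0.28 for estrogen receptor targets, 0.02 for the list of LRH-1 and steroid synthesis, 0.33 for PPARα targets and -0.64 for glucocorticoid targets. Still among the genes left in these medians and the FXR and SHP list were Ces2a, Fgf15, Abcb4, Creb3l3 and Hsd11b2. These genes reached that level in some DMSO or nativ libraries, but in fewer than 3, so they too passed only with Tamoxifen. Higher among the genes left were 2 of 5 for VDR, PPARγ and LRH-1 each and 2 of 6 for the estrogen receptor. These shares are near the 33.9% of all genes, and that for LRH-1 includes Hsd11b2. For PXR and CAR they were 8 of 11 with Ces2a, and for FXR and SHP 3 of 3 with Fgf15 and Abcb4. For PPARα they were 7 of 13 with Creb3l3, and for glucocorticoid targets 3 of 12. Of the FXR and SHP targets Slc10a2 alone passed the filter without the Tamoxifen libraries.

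Taken per length, the 10 receptors made up a larger share of nuclear receptor RNA in Tamoxifen than in DMSO or nativ organoids. Summed RPKM, CPM per kilobase of exon, came to 175 of 839 over all 49 nuclear receptors in Tamoxifen (20.8%), 36.4 of 451 in DMSO (8.07%) and 34.5 of 444 in nativ (7.77%). In gut they came to 94.7 of 506 in PG_KO (18.7%) and 87.8 of 491 in ctr (17.9%). Vdr alone made up 88.6 of the 175 in Tamoxifen, 7.39 of the 36.4 in DMSO and 6.20 of the 34.5 in nativ. Above 1 RPKM were 9 of the 10 in Tamoxifen, 4 in DMSO, 4 in nativ, 7 in PG_KO and 6 in ctr. Vdr ranked 2 of the 49 in Tamoxifen organoids, at 88.6 ± 2.23 RPKM, after Hnf4a at 224 ± 0.718 RPKM, a factor of gut and liver identity that is named here after its values were seen. In DMSO organoids Vdr ranked 16, at 7.39 ± 0.697 RPKM, and in nativ organoids 17, at 6.20 ± 1.73 RPKM. Nr1h4 ranked 10 in Tamoxifen (22.2 ± 0.851 RPKM), 26 in DMSO (1.02 ± 0.210 RPKM), 23 in nativ (1.39 ± 0.296 RPKM) and 5 in both PG_KO (32.2 ± 5.36 RPKM) and ctr gut (28.2 ± 9.43 RPKM).

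**Figure D4:**
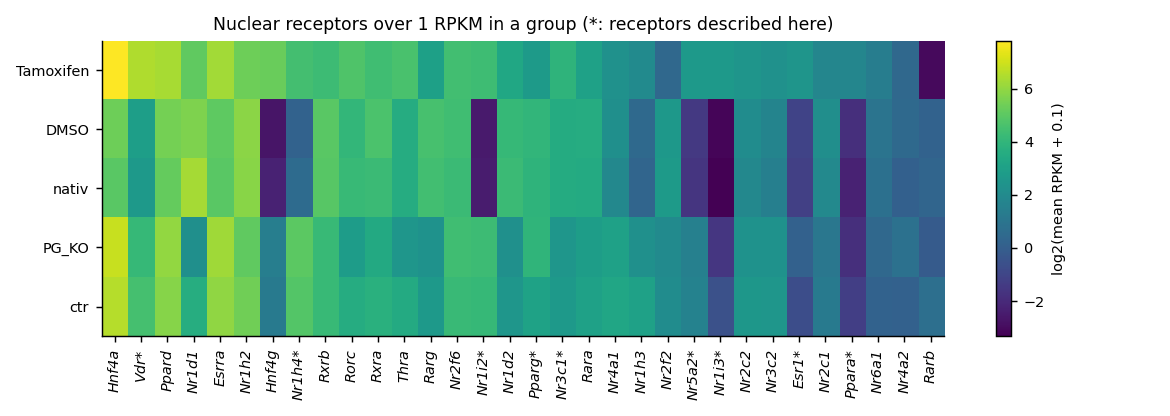
Mean level per group of the 32 nuclear receptors that pass 1 RPKM in some group, as log2(mean RPKM + 0.1), with the receptors described here starred. Vdr is second to Hnf4a in Tamoxifen organoids, where it reaches 88.6 RPKM, and stands at 7.39 RPKM in DMSO organoids.

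Over the 5 groups the receptors did not share an order of levels. Nr1i2 averaged 55.6 ± 0.500 CPM in Tamoxifen organoids, 52.5 ± 9.05 CPM in PG_KO and 47.0 ± 12.9 CPM in ctr gut, and these neighbours overlapped. Nr1h4 averaged 58.2 ± 2.23 CPM in Tamoxifen organoids, 84.5 ± 14.0 CPM in PG_KO and 74.0 ± 24.7 CPM in ctr gut, where every PG_KO library lay above every Tamoxifen library and ctr overlapped both. Esr1, Nr1i3, Nr5a2, Vdr and Ppara were highest in Tamoxifen organoids, clear of every other library. Nr3c1 was lower in gut, at 51.9 ± 3.65 CPM in PG_KO and 56.9 ± 7.95 CPM in ctr, than in any organoid group. Pparg had DMSO, PG_KO and nativ at the top, without separation (58.8 ± 6.37, 58.0 ± 6.31 and 55.6 ± 6.07 CPM), and ctr and Tamoxifen below them, overlapping with each other. Gut holds many cell types besides epithelium, so a level in gut is one over all of them.

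Between DMSO and nativ organoids none of the 9 tested receptors was called, in a comparison where 0% of all genes were called by edgeR. At an unadjusted p under 0.05, 14.6% of genes and 2 receptors passed. DESeq2 called 157 genes and limma-voom 0, and neither called a receptor. Ppara was the one receptor whose groups did not overlap, at 2.37, 1.79 and 1.67 CPM in DMSO against 1.51, 0.693 and 1.15 CPM in nativ libraries, a separation that 14.1% of genes showed. Its log2 change was 0.75 (SE 0.22, edgeR adjusted p = 0.291), and that of Nr1h4 was -0.49 (SE 0.16, edgeR adjusted p = 0.296). Esr1 differed by 0.11 (SE 0.24, 95% interval -0.36 to 0.59), which at this spread leaves room for a difference of either sign.

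In gut none of the 9 tested receptors was called in PG_KO against ctr, in a comparison where edgeR called 0% of 18043 genes. Jup itself was not called either (log2 change -2.29, SE 0.23, edgeR adjusted p = 0.163), so the lack of a call in gut does not show a lack of change. At an unadjusted p under 0.05, 15% of genes and 2 receptors, Pparg and Esr1, passed. DESeq2 called 458 genes and limma-voom 0, and neither called a receptor. Pparg stood at 64.8, 56.6 and 52.4 CPM in PG_KO and at 25.03, 27.0 and 41.9 CPM in ctr libraries. All PG_KO values lay above all ctr values, which 18.6% of genes showed in one direction or the other, and the log2 change was 0.90 (SE 0.25, 95% interval 0.41 to 1.39, edgeR adjusted p = 0.330). DESeq2 gave 0.91 with an adjusted p of 0.0752. Without ctr replicate 3 edgeR gave 1.23 with an adjusted p of 0.0379, and it then called 374 genes higher and 1104 lower. Without ctr replicate 1 and PG_KO replicate 3 together the change was 0.81 with an adjusted p of 0.688. Esr1 stood at 9.80, 8.23 and 10.5 CPM in PG_KO and at 7.05, 5.001 and 2.72 CPM in ctr libraries, again without overlap (log2 change 0.98, SE 0.36, edgeR adjusted p = 0.330).

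Cell type markers differed between the same gut libraries. Epithelial markers summed to 16157, 13162 and 15475 CPM in PG_KO and to 8260, 9966 and 13579 CPM in ctr libraries, and all 10 had a log2 change above 0. Smooth muscle markers summed to 658, 958 and 1274 CPM in PG_KO and to 4589, 3683 and 724 CPM in ctr, so ctr replicate 3 lay with the PG_KO libraries, and it also had the most Pparg and least Esr1 of the ctr group. Fibroblast markers ranged from 653 to 1410 CPM in PG_KO and from 945 to 3786 CPM in ctr, and all 8 had a log2 change below 0. B and plasma cell markers ranged from 78.2 to 171 CPM in PG_KO and from 203 to 582 CPM in ctr. Fat cell markers ranged from 8.03 to 48.7 CPM in PG_KO and from 15.6 to 61.0 CPM in ctr. The part of these markers in the levels of Pparg and Esr1 was not tested.

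**Figure D5:**
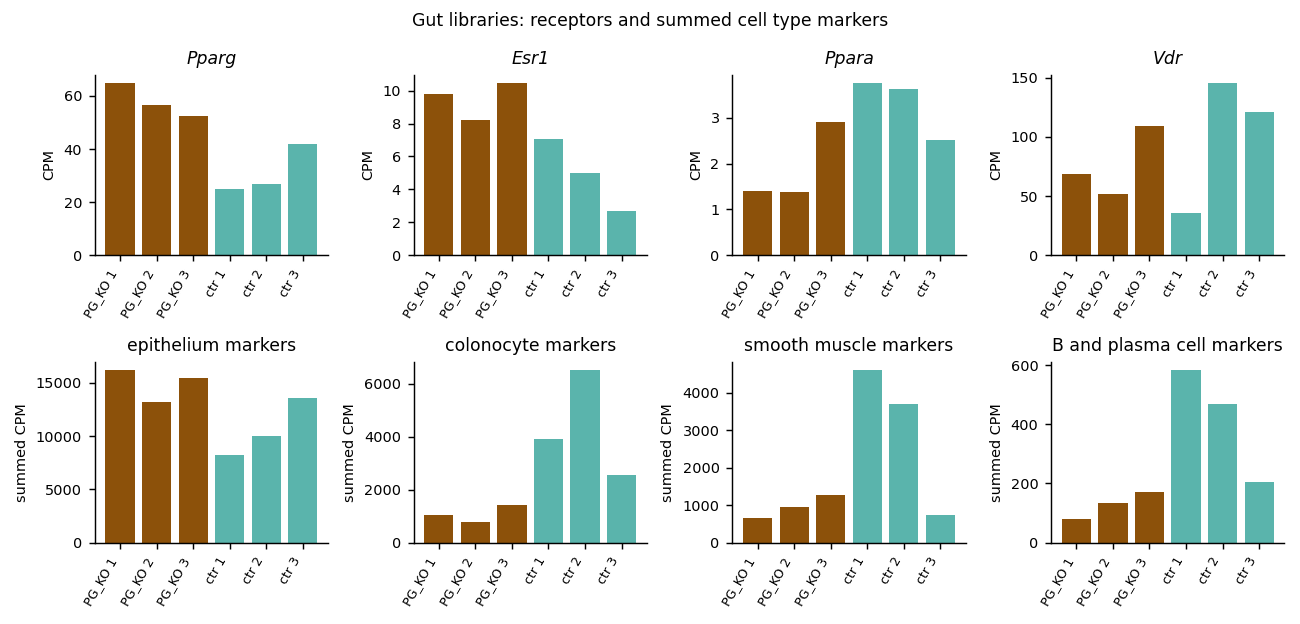
Level of 4 receptors (CPM) and summed level of 4 marker lists (CPM) in each gut library, with bars from 0. Pparg and Esr1 are higher in all 3 PG_KO libraries, and ctr replicate 3 stands near the PG_KO libraries in smooth muscle markers.

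The other receptors overlapped between the gut groups. Vdr varied most in absolute terms, at 68.4, 52.0 and 109 CPM in PG_KO and at 35.9, 146 and 121 CPM in ctr libraries, with a log2 change of -0.40 (SE 0.53, 95% interval -1.44 to 0.65), which leaves room for a difference of more than 1 on that scale. Ppara stood at 1.41, 1.39 and 2.91 CPM in PG_KO and at 3.76, 3.62 and 2.52 CPM in ctr, with a log2 change of -0.78 (SE 0.41, 95% interval -1.58 to 0.02). Nr1i3 was rare, with 7, 15 and 26 reads in PG_KO and 34, 57 and 12 reads in ctr libraries (log2 change -1.24, SE 0.71). Nr0b2 had 1 read in all 6 gut libraries together. The changes of Nr1i2 (0.16, SE 0.26), Nr1h4 (0.20, SE 0.29), Nr5a2 (-0.09, SE 0.44) and Nr3c1 (-0.12, SE 0.14) were each smaller than their standard errors.

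No target gene of any list was called in gut. The 12 tested PXR and CAR targets had a median log2 change of -0.76, and Abcb1a stood at 17.2 ± 2.15 CPM in PG_KO against 61.4 ± 4.26 CPM in ctr (log2 change -1.83, SE 0.14, edgeR adjusted p = 0.0770). Gsta1, a glutathione transferase, had the opposite sign, at 52.6 ± 16.6 CPM in PG_KO against 17.3 ± 9.07 CPM in ctr (edgeR adjusted p = 0.330). All 13 glucocorticoid targets had negative log2 changes, with a median of -0.77, beside a median of -0.03 for all genes. Negative too were all tested markers of smooth muscle, fibroblasts, endothelium, neurons and glia, macrophages, T and NK cells, B and plasma cells and neutrophils. The medians of these marker lists ran from -0.71 to -1.68, against 0.24 for epithelial and 0.12 for fat cell markers. The part of cell types in the changes of the targets was not tested. Sgk1, a kinase of sodium uptake, stood at 59.2 ± 15.3 CPM in PG_KO against 113 ± 18.3 CPM in ctr (edgeR adjusted p = 0.330). Scnn1a, a subunit of the epithelial sodium channel, stood at 56.6 ± 14.8 CPM in PG_KO against 119 ± 34.9 CPM in ctr (edgeR adjusted p = 0.330). The 7 PPARγ targets had a median of -1.16, with Lpl, the lipoprotein lipase, at 12.9 ± 4.61 CPM in PG_KO against 34.6 ± 19.5 CPM in ctr, while Pparg itself was higher in every PG_KO library. Among PPARα targets Slc25a20, a carrier of acylcarnitines into mitochondria, stood at 115 ± 14.5 CPM in PG_KO against 222 ± 54.8 CPM in ctr (edgeR adjusted p = 0.330). Fgf15 averaged 0.0584 CPM in PG_KO and 0.0127 CPM in ctr gut, and Cyp24a1 0.0132 CPM in PG_KO with no read in ctr. Medians of the other lists were -0.61 for FXR and SHP targets, 0.19 for VDR targets, -0.10 for PPARα targets, -0.10 for estrogen receptor targets, 0.06 for the list of LRH-1 and steroid synthesis, 0.06 for coregulators and -0.22 for the other receptors.

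The change in organoids and the change in gut were set against each other in 1 edgeR fit of the 12 libraries of Tamoxifen, DMSO, PG_KO and ctr, as Tamoxifen minus DMSO less PG_KO minus ctr. Of the 9 tested receptors 8 differed, 7 upwards and Pparg downwards, where 36.4% of 19141 genes did, 20.7% upwards and 15.7% downwards. The median difference of all genes was 0.14, and the receptors' differences stand against it. For Pparg the difference was -2.17 (SE 0.28, edgeR adjusted p = 0.000168), between -1.32 in organoids and 0.90 in gut. For Esr1 it was 2.89 (SE 0.38, edgeR adjusted p = 0.000210) and for Ppara 4.93 (SE 0.40, edgeR adjusted p = 6.75e-06). Nr3c1 did not differ by this test (0.49, SE 0.24, edgeR adjusted p = 0.143). Organoids and gut differ in cell types and in the labelled treatment, which cannot be told apart here.

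For each receptor the 2 genes with the most similar profile over the 15 libraries were found among 12592 genes, as the root mean square difference of centred log2 CPM. Nr1h4 was most like Serpinb1a and Abcg2, at 0.30 each against a median of 2.21 over all genes. Nr1i2 was most like Ppp1r14d (0.36) and Pdzd3 (0.47), against a median of 3.69. Nr1i3 was most like Cyp2c40 and Slc17a4, at 0.59 each against 2.89. Vdr was most like Dhrs11 (0.33) and Pbld2 (0.39), against 1.504, and Ppara most like Phospho1 (0.43) and Dnah2 (0.44), against 1.82. Nr5a2 was most like Maoa (0.44) and Cdh17 (0.46), against 2.03, and Esr1 most like Oat (0.53) and Pklr (0.56), against 1.59. Nr3c1 was most like Pard3 (0.16) and Bcorl1 (0.18), against 0.78, and Pparg most like Las1l and S100a11, at 0.23 each against 0.80. These values describe the 15 libraries, which share their groups and totals, and carry no test.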

How the data were processed

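Poly(A) RNA of 9 organoid and 6 gut libraries was sequenced by the submitters. Per the labels' protocols, RNA was isolated with TRIZOL and enriched with oligo-dT beads for TruSeq libraries. Per the submitters' processing notes, STAR 2.7.2b, featureCounts 1.6.4, DESeq2, cutadapt 2.5 and bcl2fastq 2.20.0.422 were used, with GRCm38.p6. The strand setting is not given in the sources used here. The authors deposited estimated counts of reads per gene, with no scaling between libraries, in 1 table for organoids and 1 for gut. Between 23.3% and 26.4% of values above 0 in a library are not whole (any fractional part), so some reads were divided, and values of genes with near-identical copies are uncertain. Counts were rounded to whole reads. Totals were 23194154 to 30744342 reads per library, and intervals and floors cover counting error only.

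The 10 receptors and the lists were chosen with earlier results of these data known. All 10 are reported. From each list genes were named from among the 4 called ones with the smallest p in a comparison (2 where none was called), not always all 4. Genes most like a receptor were the 2 with the smallest root mean square difference of centred log2 CPM (prior count 2) among genes with at least 1 CPM in 3 libraries. Lct, Apoa4, Fabp2, Treh, Car1, Car4, Ms4a12, Slc26a3, Abcb4, Pgr, Slc51b, Pck1, Aqp7, Cyp2c55, Cyp3a25, Hnf4a and the fat cell genes named as having no read were named after their values were seen, as were gut values of Fgf15 and Cyp24a1.

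The test was edgeR 4.0.16 in R 4.3.3 (quasi-likelihood, robust, TMM factors, filterByExpr with a minimum of 10 reads, Benjamini-Hochberg over all tested genes, threshold 0.05), tested on simulated data. The 9 organoid libraries were fitted together, the 6 gut libraries together, and 12 libraries for the difference of the changes. Standard errors were obtained as |log2 change|/√F, and 95% intervals of log2 changes are normal ones from them. Alternatives were DESeq2 1.42.0, limma-voom (limma 3.58.1), RLE factors, library totals, other filters, the replicate number as a block, only the 6 libraries compared, and leaving out libraries. A fold against 0 reads is a bound against 3 reads over the group. CPM use each library's own total, and levels set across the 2 tables rest on that. Promoter windows are from RefSeq. Figures were drawn with matplotlib 3.10.9.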

Additional observations from a re-analysis of the deposited data

Results flagged for a closer look

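For 8 receptors the change in organoids (Tamoxifen against DMSO) and the change in gut (PG_KO against ctr) differed by a test of the difference itself (edgeR, 12 libraries in 1 fit), with adjusted p-values from 1.63e-07 to 0.000484. On the log2 scale the difference was 2.89 for Esr1, 7.92 for Nr1i2, 4.22 for Nr1h4, 4.7 for Nr5a2, 3.97 for Vdr and 4.93 for Ppara, all upwards. For Pparg it was -2.17, the only one where the gene was lower in Tamoxifen organoids and, without passing the test, higher in PG_KO gut. The fitted value for Nr1i3, 10.4, depends on the prior count because DMSO libraries had 2 reads, and is no measure of size. Of all 19141 genes tested, 36.4% differed by the same test.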

How the results depend on the processing

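The call of 7 receptors higher and 1 lower held under every alternative run in Tamoxifen against DMSO, in Tamoxifen against nativ and in the difference of the changes, including the replicate block, which left 7 higher and 1 lower in each. Nr0b2 was called too in both Tamoxifen comparisons without the low-count filter, and Nr3c1 in the 3 settings named with its values. Replicate numbers did not pair the samples (correlations of same-numbered libraries -0.12 to 0.19 in organoids; 0.29, -0.18 and 0.15 in gut). Over 762 recomputed log2 changes of single receptors, 740 kept sign and side of the threshold, 18 changed sign and 4 newly passed. No change of sign passed a test, and the cause was not tested. In DMSO against nativ these were Nr3c1 (0.0061 with library totals, 0.15 without DMSO replicate 1, 0.04 without nativ replicate 1), Nr1i2 (0.032 without DMSO replicate 2, 0.02 without nativ replicate 3; from -0.47 leaving out 1 library), Pparg (-0.046 without DMSO replicate 2; to 0.14), Esr1 (-0.16 without nativ replicate 2) and Nr5a2 (-0.05 without nativ replicate 2, -0.20 without nativ replicate 3; to 0.76). In gut these were Nr5a2 (0.082 with limma-voom, 0.017 with the replicate block, 0.21 and 0.09 without ctr replicates 2 and 3, 0.13 without PG_KO replicate 1; from -0.44 leaving out 1 library, and from -0.63 over all alternatives), Nr1i2 and Nr1h4 (-0.060 and -0.040 without ctr replicate 1, up to 0.39 and 0.52 without ctr replicate 3, -0.18 and -0.12 without ctr replicate 1 and PG_KO replicate 3 together). In DMSO against nativ, over all genes, 2 were called lower without the low-count filter, 88 higher and 69 lower by DESeq2, and 0 to 1 lower when 1 library was left out. In gut, 5 were called lower without the filter and 91 higher and 367 lower by DESeq2. Leaving out 1 gut library gave 0 to 374 called higher and 0 to 1104 lower, and 0 to 1 receptors higher, in each case the upper end without ctr replicate 3, when Pparg passed. With library totals in place of TMM factors the median of all genes in Tamoxifen against nativ moved to 0.13. Depth limits Nr0b2, and Nr1i2 and Nr1i3 in DMSO and nativ organoids.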
